A study of Drosophila melanogaster with 2 samples.

Results

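The transfer RNA (tRNA) genes of *Drosophila melanogaster* were described by their distance to binding sites of CG11696, a predicted zinc finger protein. Members were all genes annotated as tRNA, with symbols starting tRNA:, on chromosome arms 2L, 2R, 3L, 3R, 4 and X. There were 290 such genes among 23973 annotated genes of these arms. Arm 2R held 98 of them, 3R 79, 3L 48, 2L 41 and X 24, and none lay on 4. The genes were short, with a median length of 73 bp (range 71 to 186). Neighbours at most 10 kb apart were joined into 133 loci, of which 64 held a single gene, 69 held 2 or more and 10 held 5 or more.

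Transfer RNAs carry amino acids to the ribosome, and their genes are transcribed by RNA polymerase III. The promoter lies within the gene itself, in a pair of short elements called the A box and the B box, which the factor TFIIIC binds. TFIIIC then places TFIIIB just upstream of the gene, and TFIIIB recruits the polymerase, which stops at a run of T after the gene. Many tRNA genes exist as identical copies, often close together.

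The single group consisted of transgenic embryos of the strain CG11696-GFP, 0 to 24 h old, which carry a fusion of CG11696 with enhanced green fluorescent protein. Bound chromatin was precipitated through the tag in 2 biological replicates and sequenced (ChIP-seq). The labels do not say what drives the fusion. Each whole embryo mixes all its cell types, so a peak cannot be assigned to one of them, and fewer bound cells cannot be told apart from weaker binding per cell. No group without the fusion was analysed here, and with 1 group no test between conditions could be made. The values are peaks that the authors called on the dm6 assembly, each with a summit and a signal value, which measures how strong the peak is on a scale of the authors' own. The thresholded list held 3143 peaks on these arms, which passed a threshold on the irreproducible discovery rate (IDR), a measure of how well a peak holds up between paired peak sets. The ranked list held 95472 peaks, most of which did not pass. Both were the authors' conservative lists, and the depth of sequencing is unknown.

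The sequences at the thresholded summits beside tRNA genes are shown first. They show what lies around the summits, but the peaks are wider than these windows. A thresholded peak overlapped 3 tRNA genes, tRNA:Asp-GTC-1-5, tRNA:Tyr-GTA-1-8 and tRNA:His-GTG-1-3. Each window reaches 50 bp to either side of the summit, on the plus strand of dm6 (RefSeq copy of the same assembly). Capitals mark a match to the B box letters GTTCNANNC or a run of 10 letters that the window shares with another of the 7 on either strand. Of the 7 windows, 4 are printed. The windows lie at chr2L:8541786-8541886, chr2L:8542011-8542111, chr3R:8669303-8669403 and chr3R:19671808-19671908, in the order printed.
tRNA:Asp-GTC-1-5, summit 8541836: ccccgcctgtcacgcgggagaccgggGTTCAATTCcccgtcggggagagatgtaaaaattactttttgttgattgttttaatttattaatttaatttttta
tRNA:Asp-GTC-1-5, summit 8542061: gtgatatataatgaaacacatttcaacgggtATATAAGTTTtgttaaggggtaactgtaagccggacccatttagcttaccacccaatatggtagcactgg
tRNA:Tyr-GTA-1-8, summit 8669353: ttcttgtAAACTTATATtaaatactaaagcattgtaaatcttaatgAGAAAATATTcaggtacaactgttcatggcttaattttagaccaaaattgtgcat
tRNA:Val-CAC-2-5, summit 19671858: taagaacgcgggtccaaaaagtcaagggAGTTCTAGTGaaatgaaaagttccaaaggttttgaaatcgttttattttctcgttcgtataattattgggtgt

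The first of these windows begins inside the aspartate tRNA gene, and its first letters are the 3′ part of that gene with its B box. The other windows printed hold no match to the B box letters. Of the 3 windows not printed, that beside tRNA:His-GTG-1-3 holds a match, outside the tRNA gene, so 2 of the 7 windows have one. The genes themselves, printed 5′ to 3′ on their own strand with matches to the A box letters GCNNAGTNG and to the B box letters in capitals, read as follows. They lie at chr2L:8541761-8541832 (plus strand), chr3R:8669081-8669174 (minus strand) and chr3R:19672277-19672349 (minus strand).
tRNA:Asp-GTC-1-5: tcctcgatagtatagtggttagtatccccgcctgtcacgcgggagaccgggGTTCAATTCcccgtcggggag
tRNA:Tyr-GTA-1-8: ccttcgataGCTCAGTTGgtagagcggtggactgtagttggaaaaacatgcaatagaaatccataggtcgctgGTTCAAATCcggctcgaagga
tRNA:Val-CAC-2-5: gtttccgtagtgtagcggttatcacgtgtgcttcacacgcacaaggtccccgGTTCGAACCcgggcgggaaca

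The neighbour of the first gene, tRNA:Asp-GTC-1-4 at chr2L:8541552-8541623 on the minus strand, has the same sequence. Among all 290 genes, 271 (93.4%) held the B box letters and 104 (35.9%) the A box letters on their own strand. These letters were widened after the stricter forms GGTTCGA and TGGCNNAGT had been found in 50% and 11.7% of the genes. The form GTTCGAN was found in 55.9%, and a run of TTTT within 30 bp after the gene in 95.5%. In windows around the thresholded summits of the whole list, the wider B box letters on either strand occurred in 3.02% (2.48 to 3.68, 95% Wilson interval, n = 3143), and in those around ranked summits in 2.99% (2.89 to 3.1, n = 95472). The wider A box letters occurred in 3.69% and 4.48% of the same windows. The stricter forms GGTTCGA and TGGCNNAGT were rarer, at 0.477% and 0.859% of thresholded windows and 0.591% and 1.78% of ranked ones. GTTCGAN occurred in 2.58% and 3.42%, the latter above the share of the wider B box letters in ranked windows.

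Over all 7 windows, 3 runs of 10 letters occurred in a pair of windows. The runs were picked for this, and the 7 windows are among the 3143 thresholded ones. Their counts there are thus at least 2 in advance, so the flanking windows are not a like comparison. The run AAACTTATAT, in the windows beside tyrosine and aspartate genes, occurred in 2 of 3143 thresholded windows (0.0636%) and in 3 of 6286 equally wide windows 300 bp to either side (0.0477%). The run AGTTCTAGTG, in the valine window and the unprinted phenylalanine one, occurred in 2 windows and in 1 flanking window. The third, common to the tyrosine window and the unprinted one beside tRNA:Trp-CCA-2-2, was more frequent, in 12 of 3143 windows (0.382%) and 8 of 6286 flanking ones (0.127%). Several word searches were made after the data were seen, and none gave a word that most of the windows shared. The share of A and T in the 7 windows ranged from 52.5% to 74.3% with a median of 60.4%, against medians of 66.3% over all thresholded windows, 55.4% over all ranked windows and 41.5% over the tRNA genes.

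Few tRNA genes had a thresholded summit close by. A summit lay within 500 bp of the annotated 5′ end for 8 of 290 genes (2.76%, 1.4 to 5.35), whereas 10.1% of 13945 protein-coding genes (9.58 to 10.6) had one within 500 bp of a transcription start site (TSS). Here and below, a protein-coding gene counted by the nearest of its annotated starts, 19607 over all such genes, and a tRNA gene by its only start. This can raise the protein-coding shares and shorten their distances. The bases within 500 bp of a thresholded summit made up 2.15% of these arms. The 8 genes carry aspartate (2 genes), histidine, tyrosine, tryptophan, phenylalanine, glycine and valine. They lay in 6 of 133 loci (4.51%) and shared 7 summits, which were 0.223% of the list. The genes of a locus share their summits, so the intervals, which cover counting only, are too narrow.

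The same order was seen in each replicate's own thresholded list. Replicate 1 placed a summit within 500 bp of 7 tRNA genes (2.41%) and of 7.45% of protein-coding genes. Replicate 2 did so for 6 tRNA genes (2.07%) and 7.41% of protein-coding genes. Only tRNA:Tyr-GTA-1-8 and tRNA:Phe-GAA-1-2 had a summit in both of these lists. The optimal list, the authors' longer set, placed one within 500 bp of 16 tRNA genes (5.52%) and of 11.7% of protein-coding genes. These 16 genes included the 8 of the conservative list, and the other 8 all lay on 2R. They were tRNA:Arg-TCT-1-1, tRNA:Met-CAT-1-1, tRNA:Glu-CTC-1-1, tRNA:Glu-TTC-1-1, tRNA:Ile-AAT-1-3, tRNA:Ile-AAT-1-9, tRNA:Thr-AGT-1-2 and tRNA:Trp-CCA-2-5. Of the 846 optimal peaks that overlapped no conservative peak, 155 (18.3%) lay on 2R, against 16.3% of the conservative peaks.

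In any of the 4 thresholded lists, 20 tRNA genes had a summit within 500 bp. Those found only in the list of replicate 1 were tRNA:Asn-GTT-1-7 and tRNA:Asn-GTT-1-8, with a shared peak of signal value 23.7, tRNA:Leu-TAA-2-1 (37.9) and tRNA:Ser-AGA-2-4 (42.9). The peak of the last of these had its summit 6 bp from the gene start. The highest of these 3 signal values lay below the median of replicate 1's thresholded list, 69.7.

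**Figure D1:**
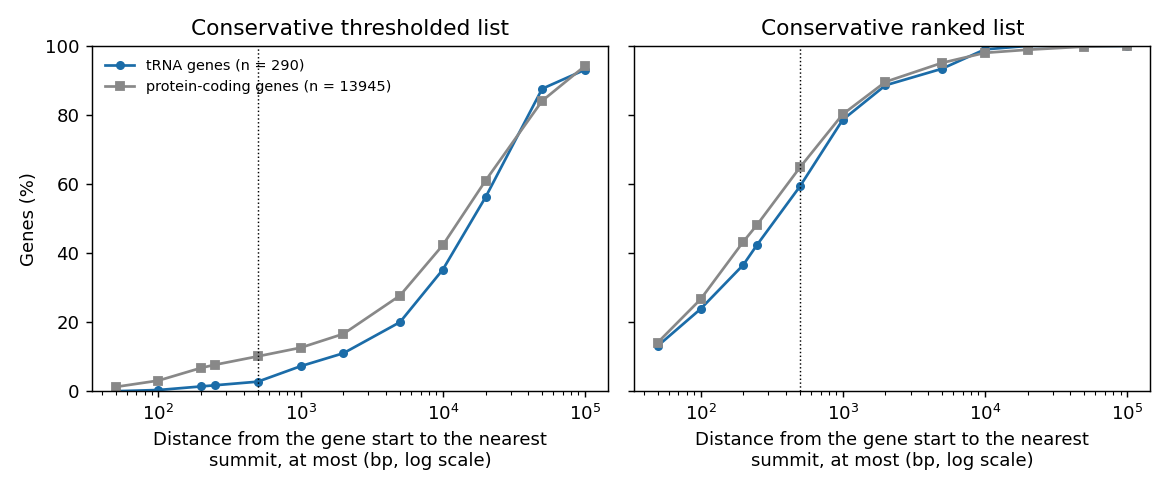
Share of tRNA genes (circles) and protein-coding genes (squares) whose nearest summit lies within a given distance of the gene start (log scale, bp), in the thresholded list on the left and the ranked list on the right. The dotted line marks 500 bp, where the curves stand at 2.76% and 10.1% on the left and at 59.3% and 64.8% on the right.

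The strongest peak of the whole list lay beside tRNA:Tyr-GTA-1-8. Its pooled signal value was 2101, with 1087 in replicate 1 and 976 in replicate 2, a mean of 1031 ± 78.1 (SD, n = 2). It was the highest value of replicate 1's ranked list, while the highest of replicate 2's was 1018.5. The summit lay 179 bp upstream of the start of this minus-strand gene. The nearest protein-coding start, that of CG8036, was 265 bp away. Both the gene and the summit are intronic in CG8036 and in p (pink), a gene named for its eye colour phenotype. The peak spanned 481 bp and overlapped the tRNA gene, whereas the other summits beside tRNA genes had peaks of 344 bp. Each 31-letter word in the window of the tyrosine summit occurred once in the genome.

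The other 6 summits were weaker, and for the 4 with a value in both replicates the gap was larger than the spread between replicates. At tRNA:Phe-GAA-1-2 the signal value was 148 in the pooled list, 77.0 in replicate 1 and 75.1 in replicate 2, a mean of 76.1 ± 1.36 (SD, n = 2). This summit lay 312 bp downstream of the tRNA gene start and 7 bp from the start of RpL17, which encodes a protein of the large ribosomal subunit, in its 5′ UTR. At tRNA:Val-CAC-2-5 the pooled value was 137, with 89.4 and 50.1 in the replicates (69.8 ± 27.8, SD, n = 2). That summit lay 491 bp from the tRNA gene and 408 bp from the start of Naam, which encodes a nicotinamidase and holds the tRNA gene in an intron on the opposite strand. The replicates differed here more than at the phenylalanine gene.

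The peak shared by tRNA:Trp-CCA-2-2 and tRNA:Gly-GCC-1-9, which lie at chr2R:18639557-18639628 and chr2R:18639726-18639796, had a pooled value of 99.5, with 40.2 and 54.8 in the replicates (47.5 ± 10.3, SD, n = 2). Its summit was 198 bp and 437 bp from their starts and 89 bp from the start of CG30122. At tRNA:His-GTG-1-3 (chr2R:12334995-12335066) the pooled value was 68.1, with 36.1 and 36.7 in the replicates (36.4 ± 0.437, SD, n = 2), and the start of CG8490 was nearer, at 109 bp against 141 bp. Neither of these summits lies in an annotated gene.

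The aspartate pair on 2L had overlapping peaks with a summit each. The stronger, at position 8541836, had a pooled value of 88.4 and lay 75 bp from the start of tRNA:Asp-GTC-1-5 and 213 bp from that of tRNA:Asp-GTC-1-4, just past the 3′ end of the former. The weaker, at 8542061, had a pooled value of 44.2 and lay 300 bp from tRNA:Asp-GTC-1-5 and 86 bp from the start of Sema1a, which encodes a semaphorin, an axon guidance protein. Replicate 1 held 41.4 and 32.4 there, and no peak of replicate 2's own ranked list overlapped either. In the window of the stronger summit 74.6% of the 31-letter words occurred once in the genome, and in that of the phenylalanine summit 81.7%. The other 5 windows held only words that occurred once.

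A protein-coding start was nearer than the tRNA gene for 5 of the 7 summits (71.4%, 35.9 to 91.8), those next to RpL17, Naam, CG30122, CG8490 and the weaker one at Sema1a. This majority did not hold in other lists: the count was 2 of 6 (33.3%) in replicate 1's own list, 2 of 5 (40%) in replicate 2's and 6 of 13 (46.2%) in the optimal list. In the conservative list, the tRNA gene was nearer for the tyrosine summit and for the stronger aspartate summit. Seen from the tRNA genes, 32 had a protein-coding start within 500 bp, and 6 of these (18.8%, 8.89 to 35.3) had a thresholded summit. Of the 258 with none within 500 bp, 2 had one (0.775%, 0.213 to 2.78), tRNA:Asp-GTC-1-4 at 524 bp from a protein-coding start and tRNA:Val-CAC-2-5 at 899 bp. Of the 211 with none within 1000 bp, 0 had one. The upper Wilson bound of 1.79% is too low, because genes of a locus are not independent. Promoters of protein-coding genes hold summits themselves, and the tRNA genes' own part in these counts was not tested.

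**Figure D2:**
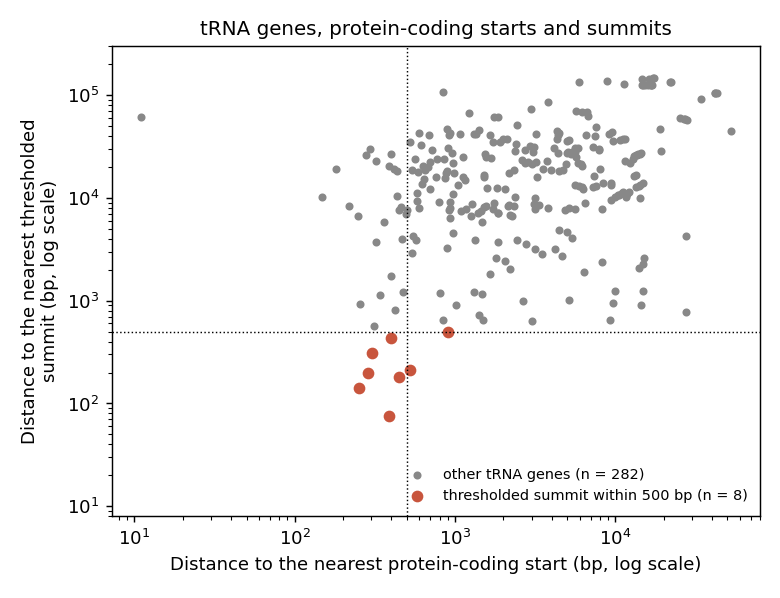
Each of the 290 tRNA genes by its distance to the nearest protein-coding start (x axis, bp, log scale) and to the nearest thresholded summit (y axis, bp, log scale), with dotted lines at 500 bp. The 8 genes with a summit within 500 bp lie between 250 and 899 bp from a protein-coding start, at the left of the cloud, whose median is 2895 bp.

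Outside 500 bp the next genes followed closely. The last gene inside the window was tRNA:Val-CAC-2-5 at 491 bp, and the first outside was tRNA:Ile-AAT-1-8 at 570 bp, from a peak of pooled value 128 (52.7 and 81.7 in the replicates) in ATP8A. Then came tRNA:Tyr-GTA-1-4 at 631 bp. Its peak was intergenic, with a pooled value of 147 and replicate values of 65.1 and 80.8 (72.9 ± 11.1, SD, n = 2), and its nearest protein-coding start, of Cyp313b1, was 3664 bp away. Within 1000 bp there were 21 tRNA genes (7.24%) with a thresholded summit, against 12.6% of protein-coding genes. The median distance to the nearest thresholded summit was 16612.5 bp (quartiles 7609 and 31308.5) for tRNA genes and 13497 bp (4213 and 33234) for protein-coding genes.

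All 10 tyrosine tRNA genes were examined in turn, as the strongest peak lay beside one. The 9 genes named tRNA:Tyr-GTA-1 share their first 37 and last 36 bases and differ in the part between, which follows the anticodon GTA and corresponds to the intron that tyrosine tRNA genes of flies carry. The 5 copies on 3R and 2 others are printed 5′ to 3′ with that part in capitals, from chr3R:8669081-8669174, chr3R:8668612-8668705, chr3R:8668116-8668208, chr3R:8642333-8642425, chr3R:8642701-8642793 (all minus strand), chr2L:2462593-2462686 (plus strand) and chrX:21304441-21304535 (minus strand).
tRNA:Tyr-GTA-1-8: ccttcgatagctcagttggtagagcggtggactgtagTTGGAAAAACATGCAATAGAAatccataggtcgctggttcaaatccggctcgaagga
tRNA:Tyr-GTA-1-7: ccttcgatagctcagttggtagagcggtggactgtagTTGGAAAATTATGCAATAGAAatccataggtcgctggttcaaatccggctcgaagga
tRNA:Tyr-GTA-1-6: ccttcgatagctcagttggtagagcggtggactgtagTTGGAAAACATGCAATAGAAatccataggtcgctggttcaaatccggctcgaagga
tRNA:Tyr-GTA-1-4: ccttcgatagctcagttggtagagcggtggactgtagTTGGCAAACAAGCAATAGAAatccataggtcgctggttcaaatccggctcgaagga
tRNA:Tyr-GTA-1-5: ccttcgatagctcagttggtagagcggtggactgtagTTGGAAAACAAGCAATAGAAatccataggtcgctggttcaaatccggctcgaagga
tRNA:Tyr-GTA-1-3: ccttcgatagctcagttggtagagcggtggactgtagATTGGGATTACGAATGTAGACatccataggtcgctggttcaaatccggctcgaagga
tRNA:Tyr-GTA-1-1: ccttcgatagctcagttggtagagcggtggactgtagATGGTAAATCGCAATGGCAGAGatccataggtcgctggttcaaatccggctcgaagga

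The 5 copies on 3R fall into neighbouring loci and lie within 1145 bp of a thresholded summit. In the locus of tRNA:Tyr-GTA-1-8, the same summit of value 2101 lay 648 bp from tRNA:Tyr-GTA-1-7 and 1145 bp from tRNA:Tyr-GTA-1-6, upstream of all 3 genes. In the other locus, the summit of value 147 lay 631 bp from tRNA:Tyr-GTA-1-4 and 999 bp from tRNA:Tyr-GTA-1-5, downstream of both. No ranked summit lay nearer to any of these 4 genes. The tyrosine genes on 2L and X were all farther from a thresholded summit, at 26410 bp (tRNA:Tyr-GTA-1-2), 28959 bp (tRNA:Tyr-GTA-1-3), 34907 bp (tRNA:Tyr-GTA-2-1), 35085 bp (tRNA:Tyr-GTA-1-1) and 60736 bp (tRNA:Tyr-GTA-1-9). The last of these is the longest tRNA gene, at 186 bp, and overlaps an exon of Ntl.

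Of these 5 genes, 3 had a ranked summit within 500 bp. At tRNA:Tyr-GTA-1-3 the pooled value was 41.3, and the replicates' strongest values within 500 bp were 18.04 and 18.4 (18.2 ± 0.249, SD, n = 2). The pooled value was above the upper quartile of all ranked peaks, 32.9. tRNA:Tyr-GTA-1-1 and tRNA:Tyr-GTA-2-1 shared a peak of pooled value 20.9, below the median of all ranked peaks, 22.8. The replicates' strongest values within 500 bp were 15.5 and 2.64 (9.06 ± 9.08, SD, n = 2), and these need not be the same peak. Of the 9 genes with the shared first and last bases, 3 thus had a ranked summit within 500 bp, with strongest values of 2101, 41.3 and 20.9, and 6 had none.

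In the ranked list a summit near a tRNA gene was common, as it was elsewhere. Within 500 bp of the start, 172 of 290 tRNA genes (59.3%, 53.6 to 64.8) had one, against 64.8% of protein-coding genes (64 to 65.6), and the bases within 500 bp of a ranked summit made up 47.8% of these arms. The order of the 2 gene sets depended on the list. In replicate 1's own ranked list the share was 59% of tRNA genes and 54.8% of protein-coding genes, in replicate 2's 61.7% and 71.4%, and in the optimal ranked list 75.2% and 80.3%. The lists of the replicates held 49304 and 122230 peaks. Both replicates' own ranked lists placed a summit within 500 bp of 115 tRNA genes (39.7%), and neither list did so for 55 (19%). These 2 shares were not counted over protein-coding genes. Lists this long share many genes in any case, so the shares do not measure agreement at tRNA genes.

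The strongest ranked peak within 500 bp of these 172 genes had a median signal value of 33.9 (quartiles 22.6 and 44.5), against 35.0 over the protein-coding genes with a ranked summit and 22.8 over all ranked peaks. The maximum over a window is higher than a single peak, and 69 of the 172 genes had 2 or more summits in it. The strongest peak of each replicate within 500 bp was compared over the 115 genes with one in both, although these need not overlap. Spearman's rho between these replicate values was 0.41, and 0.31 over the 109 genes without a thresholded summit. This is a description across genes, many of which share a peak. Replicate 2 had the higher value at 38 of the 115, and the log2 ratio of replicate 2 to replicate 1 had a median of -0.38 and ranged from -3.14 to 1.53. The median over replicate 2's whole ranked list was 13.5, against 16.5 in replicate 1. These medians are not alike, since replicate 2's list held 122230 peaks down to a value of 2.00 and replicate 1's 49304 down to 8.94. Whether the lower values are particular to tRNA genes was not tested.

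**Figure D3:**
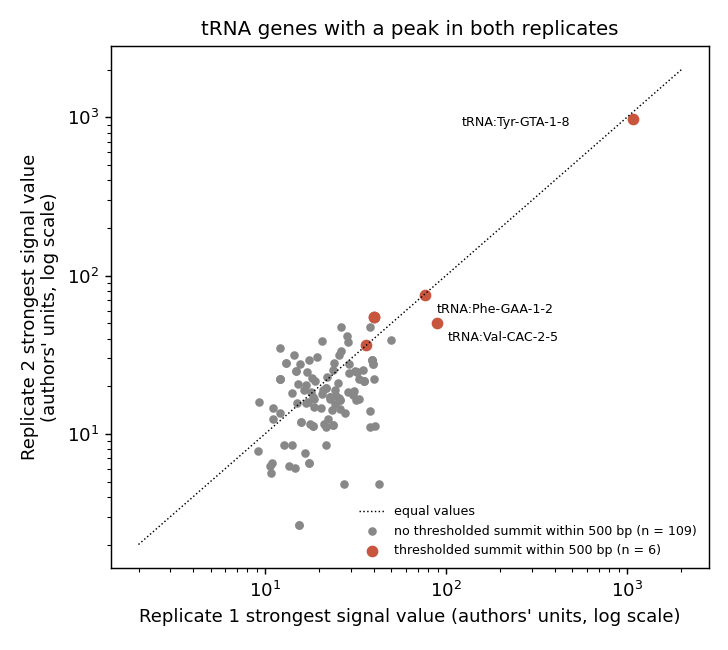
Strongest signal value within 500 bp of the gene start in replicate 1 (x axis) and replicate 2 (y axis), in the authors' units on log scales, for the 115 tRNA genes with a peak in both ranked lists. The 6 genes with a thresholded summit (large points, of which the tryptophan and glycine genes share one) include tRNA:Tyr-GTA-1-8, which stands apart at 1087 and 976.

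The 10 tRNA genes with the strongest ranked peak within 500 bp comprised 7 of the 8 genes above and 3 glutamate genes on 2R. tRNA:Glu-TTC-1-5 had a pooled value of 92.8, and its nearest thresholded summit lay at 12614 bp. The replicates' strongest values within 500 bp of this gene were 50.0028 and 39.0 (44.5 ± 7.81, SD, n = 2). tRNA:Glu-CTC-1-1 and tRNA:Glu-TTC-1-1, both in introns of mrj, a gene for a chaperone of the DnaJ family, shared a peak of pooled value 88.2. Its value in replicate 2 was 47.5, and it passed the threshold in the list of replicate 2 and in the optimal list. The histidine gene, with a value of 68.1, was the one of the 8 outside these 10.

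Ranked summits lay on either side of the gene start. The nearest was upstream for 86 of the 172 genes, inside the gene for 28 and downstream of it for 58. It lay within 100 bp of the start for 69 of the 172 (40.1%), against 41% of the 9038 protein-coding genes with a ranked summit. Per 100 bp bin, tRNA starts had between 0.0621 and 0.121 ranked summits, with 0.117 in the last bin upstream and 0.121 in the first downstream. Protein-coding starts had 0.116 and 0.104 in the same bins, and their highest value, 0.122, lay 100 to 200 bp upstream. A protein-coding start was nearer to the nearest ranked summit for 8 of the 172 genes (4.65%). The share of tRNA genes with a ranked summit was 53.1% (17 of 32) where a protein-coding start lay within 500 bp and 60.1% (155 of 258) where none did.

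**Figure D4:**
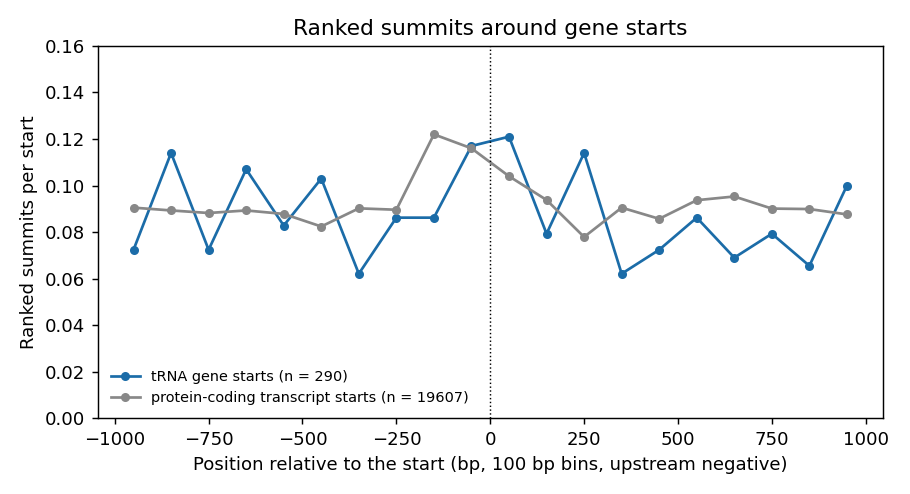
Ranked summits per start in 100 bp bins from 1000 bp upstream (negative) to 1000 bp downstream, for 290 tRNA genes and 19607 protein-coding transcript starts. The bins on either side of the tRNA start hold 0.117 and 0.121 summits per gene, and a bin 800 to 900 bp upstream holds 0.114. Those on either side of the protein-coding start hold 0.116 and 0.104.

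By amino acid, a ranked summit lay within 500 bp for a share of genes between 0 and 100%. Phenylalanine had one at all 8 of its genes, in 6 loci, with a median distance of 162.5 bp. Tryptophan followed with 7 of 8 genes, isoleucine with 9 of 11, histidine with 4 of 5 and valine with 12 of 15. At the low end were the single selenocysteine gene with none, cysteine with 1 of 7 genes and tyrosine with 4 of 10. The largest groups, arginine with 26 genes and leucine with 22, each had 14 with a ranked summit. The groups are small and their genes share loci, so no order among them was tested.

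Within an amino acid the anticodon families differed in their counts. Families near the extremes are named here, beside 59.3% of all tRNA genes. Genes of a locus share summits, so a family cannot be told apart from its few loci. Of the arginine genes, those with anticodon TCT had a ranked summit at 3 of 3 and those with ACG at 2 of 10, each family in 3 loci. Of the serine genes, those with CGA had one at 4 of 4 and those with GCT at 0 of 6, again in 3 loci each. All 6 valine genes with AAC had one, and so did the 3 alanine genes with CGC, which form a single locus. The highest median of the strongest ranked value by amino acid was 59.9 for tryptophan and the lowest 15.1 for isoleucine.

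**Figure D5:**
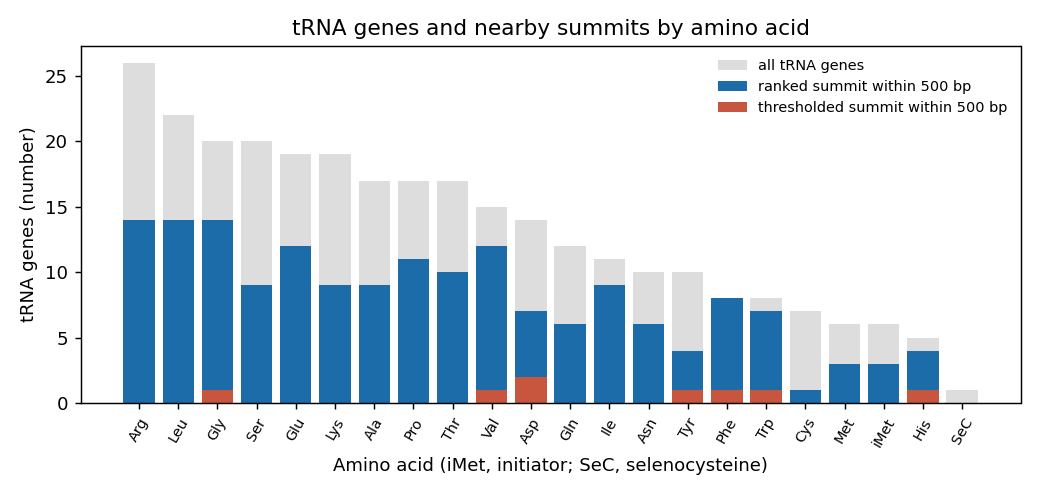
Number of tRNA genes by amino acid (pale bars, from 0), the number with a ranked summit within 500 bp (blue) and the number with a thresholded summit (red). All 8 phenylalanine genes and 1 of 7 cysteine genes have a ranked summit, and the 8 genes with a thresholded summit spread over 7 amino acids.

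By locus, 95 of 133 (71.4%) had a ranked summit within 500 bp of a member. A locus of several genes covers more bases, so this share cannot be set beside shares of genes. Single genes and clustered genes had like shares, 38 of 64 (59.4%) and 134 of 226 (59.3%). In loci of 5 or more genes, 39 of 80 (48.8%, 38.1 to 59.5) had a ranked summit and 0 of 80 a thresholded one. The upper Wilson bound of 4.58% is too low, because these 80 genes lie in 10 loci and are not independent. The largest locus, chr2R:6152603-6178656, held 15 genes for asparagine, arginine, lysine and isoleucine. A ranked summit lay within 500 bp of 4 of them, the strongest of value 34.1, and the nearest thresholded summit was 18133 bp from a member. The next largest, chr3R:17617761-17631750, held 11 genes for valine, proline, alanine and threonine. There 6 had a ranked summit, the strongest of value 58.5, and the nearest thresholded summit was at 13356 bp.

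By chromosome arm the share with a ranked summit was lowest on 3R, with 36 of 79 (45.6%, against 68.1% of protein-coding genes of that arm), and highest on 3L, with 35 of 48 (72.9%, against 66.6%). These genes lay in 36 loci on 3R and 23 on 3L, whose members share summits, so an arm cannot be told apart from its loci. No tRNA gene on 3L had a thresholded summit within 500 bp, and the nearest was at 645 bp. By position, 75 of 127 tRNA genes in introns (59.1%), 93 of 156 between genes (59.6%) and 4 of 7 overlapping an exon (57.1%) had a ranked summit. A thresholded summit was found at 2, 6 and 0 of them.

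Short reads from repeated sequence match several places, so the uniqueness of the sequence in and around each gene was counted. An identical copy existed for 238 of the 290 genes (82.1%). Within 500 bp of the start, a median of 92.1% of 31-letter words occurred once in the genome. The median was 91.8% for the 8 genes with a thresholded summit, 93.4% for the 164 with a ranked summit only and 90.7% for the 118 with neither. Around all 3143 thresholded summits, windows of the same width had a median and a lower quartile of 100%. The windows at tRNA genes were thus less unique than those at most thresholded summits. They include the tRNA gene itself and any tRNA gene beside it, and the flanks alone were not counted. Of the 84 genes with under 90% of words occurring once, 42 (50%, 39.5 to 60.5) had a ranked summit, and of the other 206, 130 (63.1%, 56.3 to 69.4). The sources used here do not say how reads with several matches were treated, and the part of repeats in these counts was not tested.

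The genes of the tRNA machinery were counted in the same way. RNA polymerase III and its factors had a thresholded summit within 500 bp of a start at 3 of the 22 genes found of 23 listed, and a ranked one at 12. The 3 were Brf and Bdp1, subunits of TFIIIB, with strongest ranked values of 142 and 108 and summits at 177 bp and 46 bp, and Polr3E, a subunit of the polymerase, with 131 and a thresholded summit at 293 bp. Of the 23 genes for tRNA maturation found of 30 listed, 1 had a thresholded summit and 17 a ranked one. That gene was Rtca, an RNA 3′-terminal phosphate cyclase, with a value of 424 and a summit at 195 bp. These counts stand beside shares of 10.1% and 64.8% over all protein-coding genes, and are too small to be set apart from them.

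A list of other small RNA genes, most of them known as RNA polymerase III transcripts, was chosen by symbol. The polymerase of each was not examined. It had 0 thresholded summits within 500 bp among 106 genes, of which 96 were 5S ribosomal RNA genes with no ranked summit either. These 96 lie in regular steps along a single array, 14779 to 51361 bp from a thresholded summit, so they are not separate observations. The uniqueness of their sequence was not counted. Of the other 10, 5 had a ranked summit. The strongest was at snRNA:7SKa, a copy of the 7SK RNA gene, with a value of 80.4, and its nearest thresholded summit lay 1048 bp away. The others were at RNaseMRP:RNA (30.5), snRNA:U6atac (27.5), snRNA:7SKb (25.7) and RNaseP:RNA (25.6). The 3 U6 and the 2 7SL genes had none within 500 bp.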

How the data were processed

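Binding was measured by ChIP-seq in 2 biological replicates of 1 group. The authors called all 8 peak lists on dm6 from sample and control alignments, per the deposited descriptions. The sources used here do not give the aligner, the peak caller, the settings or the depth. Each deposited list gives a score from 0 to 1000 that follows the IDR, with no thresholded peak under 830. Each deposited list also gives the signal value as the peak's strength, the −log10 of the IDR deposited by the authors in the ranked lists, and the summit as an offset from the peak's start. The signal value was used within a list or between replicates. At the thresholded summits named, replicate peaks were matched by an overlap of at least 1 bp with the pooled peak. Where several did, the one with the nearest summit was taken. Elsewhere the replicate value of a tRNA gene was the strongest peak within 500 bp in each replicate's own ranked list. Such peaks need not overlap each other or the pooled peak. The ranked lists of the whole series hold 16 further columns, for peak sets that the files do not name, and these were not used.

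Distances ran from the annotated 5′ end (Ensembl release 115, 1-based) to the nearest summit, within 500 bp. For protein-coding genes the nearest of all annotated starts was taken. Shares have 95% Wilson intervals, which cover counting only. No test was run, because there is 1 group and genes of a locus are not independent. The distance code was tested on simulated data. Sequence was read from the RefSeq Release 6 genome. Python 3.11.15, pandas 2.3.3, numpy 2.4.6, scipy 1.17.1 and matplotlib 3.10.9 were used.

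The members, the lists and the rules were chosen with earlier results of these data known. Genes named were those with a thresholded summit within 500 bp or, to reach 10, the nearest to one, the 10 with the strongest ranked peak, all tyrosine tRNA genes, the neighbouring and host genes of the first set, and the 2 largest loci. Other genes named stand out in a count and were chosen after their values were seen. Alternatives were other windows (250 and 1000 bp), distances from the gene body, peak overlap, the optimal list, the stronger 50% of peaks, passing ranked peaks added back, single replicates, and locus gaps of 5 and 20 kb.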

Additional observations from a re-analysis of the deposited data

How the results depend on the processing

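Of 58 alternative values of 8 results, 35 stayed within 1.5 times the reported count, or for medians within the SD of the replicates' own lists, and 23 moved. The count of tRNA genes with a thresholded summit, 8, became 16 with the optimal list, 3 with the stronger 50% of peaks, 5 and 21 with windows of 250 and 1000 bp, and 3 where the peak had to overlap the gene. Single replicates gave 6 to 7. The ranked count of 172 became 111 where the peak had to overlap the gene. The loci with a thresholded summit, 6, became 12 with the optimal list, 3 with the stronger peaks and 15 at 1000 bp, and single replicates gave 4 to 6. The protein-coding count of 1404 became 821 with the stronger peaks. The median distance to a thresholded summit, 16612.5 bp, became 14968 bp with the optimal list and 29011 bp with the stronger peaks, and single replicates gave 19378 to 20171.5 bp. The median to a ranked summit, 332.5 bp, became 225.5 bp with the optimal list, 599.5 bp with the stronger peaks and 288 bp from the gene body, and single replicates gave 315 to 375 bp. The 5 summits with a nearer protein-coding start became 2 of 3 with the stronger peaks, 2 of 4 at 250 bp and 10 of 19 at 1000 bp, and each single replicate gave 2, of 5 in replicate 2's list and of 6 in replicate 1's. The optimal list gave 6 of 13. The causes of these moves were not tested beyond what the settings themselves fix, such as fewer peaks or a wider window. No paired analysis was possible because there is 1 group and no contrast. The depth is unknown, so a gene without a summit may hold binding too weak for these lists.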
